A study of Macaca mulatta with 6 samples.

Results

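The genes described here are 59 markers of the layers of the primate cortex and of the excitatory neurons in them, compared between libraries from rhesus monkeys given morphine and libraries from monkeys given saline. They were chosen by symbol, from lists of upper layer, layer 4, layer 5, layer 6 and subplate markers, with earlier results of these data known. Of the 59, 48 were matched to a row of the 23191 genes in the table and 45 had a mean of at least 10 normalized counts over the 6 libraries, the level for testing. No row was matched to the other 11 symbols, LINC00507, PENK2, POU3F3, NR4A4, CTGF2, HS3ST4, HS3ST2, OPRK2, UNC5D2, KITLG and RPRM, and these are not analysed here. In all, 16595 genes were tested. Members were assigned to a layer where 1 layer was taken as their main one, though they need not be confined to it. This gave 6 tested upper layer markers, 1 layer 4, 8 layer 5 and 7 layer 6 and subplate markers. Beside these were 8 genes of several layers and 15 that were given no layer.

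Excitatory neurons of the cortex lie in layers that differ in where their axons go. Neurons of the upper layers mostly connect one part of the cortex with another. Layer 4 receives much of the input from the thalamus, layer 5 holds the cells that project to the brainstem, spinal cord and striatum, and layer 6 projects back to the thalamus. The deepest cells of the cortex, in layer 6b, are what remains in the adult of the subplate of the fetus. Transcription factors such as CUX2, RORB, FEZF2 and TBR1 set and mark these identities.

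Polyadenylated RNA was sequenced in 6 libraries labelled as neurons purified from the cortex of adult male Macaca mulatta aged 3 to 4 years, 3 libraries per group. The morphine group received morphine, an opioid, under the skin 3 times daily over 90 days. Doses started at 3 mg/kg and had reached 15 mg/kg by day 29. The saline group received the same volume of saline on the same schedule. The protocol names 2 monkeys in each group, so at least 2 of the 3 libraries of a group share an animal. P-values that count libraries as replicates are hence too small, and an effect of the treatment cannot be told apart from a difference between monkeys. Which part of the cortex was sampled is not given in the labels.

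Reads per library, recovered from the normalized values, lay between 31238653 and 36345095. The labels call the cells neurons, yet glial transcripts were abundant: the summed level of 5 oligodendrocyte markers lay between 256588 and 265159 normalized counts in all 6 libraries. MBP made up most of it, with a mean of 197809 over the 6 libraries. Markers of other cells were called in both directions, where 27.9% of all genes tested were called (limma, adjusted p under 0.05). Of 6 astrocyte markers 5 fell and 1 rose, of 4 microglia markers 3 rose and 1 fell, and of 8 pan-neuronal markers 6 fell and 1 rose. The summed level of the 6 astrocyte markers was 163597 to 165165 normalized counts in morphine and 218900 to 225285 in saline libraries. SLC1A3 weighed most in it, with means of 82480 in morphine and 123564 in saline libraries, while GFAP rose, with means of 40539 and 30493. The summed level of the 4 microglia markers was 6814 to 7219 in morphine and 4663 to 5065 in saline libraries. Of 6 excitatory neuron markers SLC17A6 and NRGN fell, at log2 fold changes of -0.34 and -0.22. Of these 6, 4 were lower and 0 higher at an unadjusted limma p under 0.05, beside 3548 and 3390 of all 16595 genes. Of the same 6, edgeR called 4 falls and 0 rises, where 34.0% of all genes were called. The SLC17A6 call was lost with morphine replicate 2 or 3 or saline replicate 1 or 2 left out (limma adjusted p = 0.0663, 0.0603, 0.0551 and 0.0526), and that of NRGN with any library left out (0.0543 to 0.0825). The summed level of the 6 excitatory markers was 194482 to 196483 in morphine and 213440 to 215460 in saline libraries. Most of this sum came from CAMK2A and NRGN. CAMK2A had a mean of 109841 in morphine and 119818 in saline libraries and was not called (limma adjusted p = 0.0954). NRGN had means of 52809 and 61462. SLC17A7, the vesicular glutamate carrier of most cortical excitatory neurons, had 25377, 25292 and 25693 normalized counts in saline libraries 1, 2 and 3 and 26103, 26593 and 25830.1 in morphine libraries 1, 2 and 3, with a log2 fold change of 0.04 ± 0.0452 (SE) that did not pass the test. Among the other lists 1 of 8 inhibitory neuron markers rose and 1 fell, 2 of 5 oligodendrocyte markers rose and 1 fell, and 2 of 4 oligodendrocyte precursor markers, 2 of 4 fibroblast markers and 1 of 5 subcortical markers rose. Of 6 endothelial and mural markers 1 rose and 3 fell. No marker measured was at 0 in all libraries. In bulk RNA, fewer cells of a type and less RNA per cell cannot be told apart. The part of these other cell types in the values of the layer markers was not tested.

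Layer markers moved in both directions, also within the upper layer, layer 5 and layer 6 groups. Of the 45 tested, 9 rose and 9 fell at an adjusted p under 0.05 (limma, Benjamini-Hochberg adjustment over all 16595 genes). Over all genes tested 27.9% were called, 12.9% as rises and 15.0% as falls. Among genes with a mean of 50 or more normalized counts these calls took in 31.0% of all genes and 17 of 43 members. When limma was fitted and adjusted over such genes alone, 35.8% of them and 20 of the 43 members were called. The edgeR quasi-likelihood test on recovered reads called 22 of the 45 members, where 34.0% of all genes were called. Members called by edgeR and not by limma were BCL6, NEUROD1 and TRIB2 as falls and SULF1 as a rise. DESeq2 called 25 members, where 36.8% of all genes were called. The median log2 fold change of the 45 members was -0.02, beside 0.01 for all genes tested, and the median size of their log2 fold change, whatever its direction, was 0.40, beside 0.26 for all genes. The 2 groups of libraries did not overlap for 30 of the 45 members, 15 with morphine above and 15 with morphine below, beside 48.7% of all genes tested (24.1% above and 24.6% below). The sizes were mostly modest, with 3 of the 18 changed members moving by more than 1 on the log2 scale. All fold changes are differences of log2(normalized count + 1), morphine minus saline, which understate the change of low genes.

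**Figure D1:**
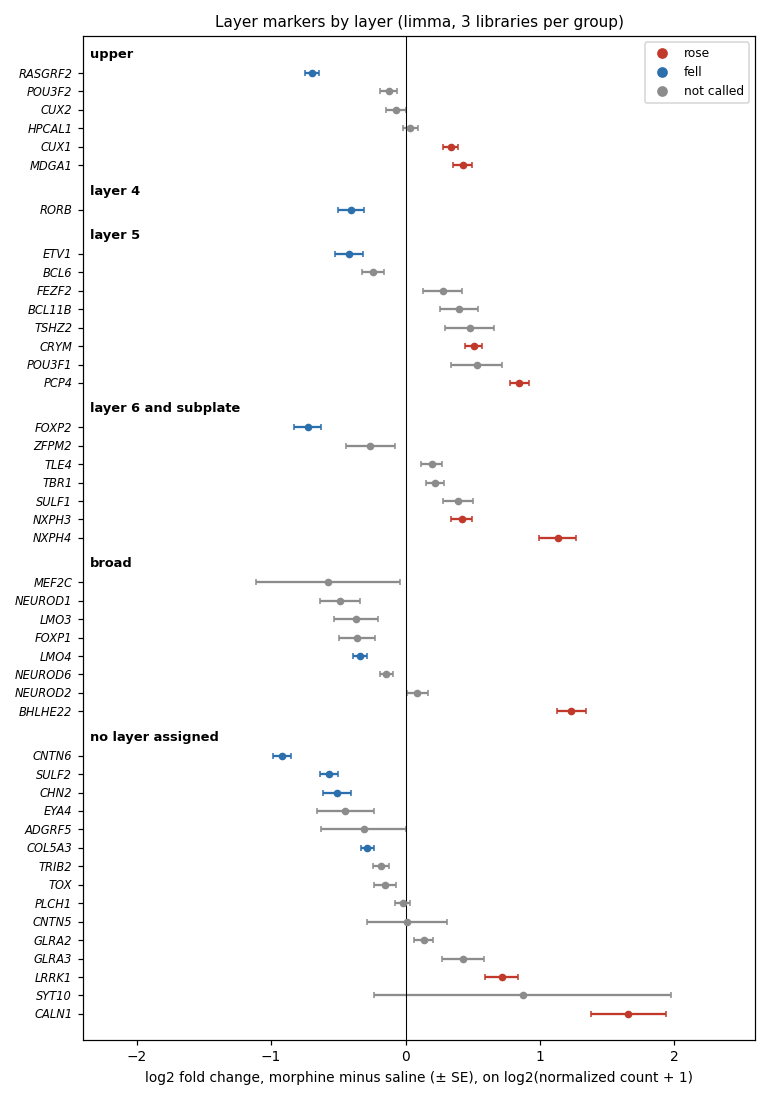
Log2 fold change of the 45 tested layer markers (horizontal axis, morphine minus saline on log2(normalized count + 1), bars are standard errors), grouped by layer, with genes that rose in red, genes that fell in blue and others in grey (limma, 3 libraries per group). The upper layer markers lie on both sides of 0, whereas 6 of 8 layer 5 and 5 of 7 layer 6 and subplate markers lie to its right. Of all genes tested 8404 of 16595 were above 0.

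Upper layer markers split. Of 6 tested, CUX1 and MDGA1 rose and RASGRF2 fell, where 27.9% of all genes tested were called. The median log2 fold change of the 6 was -0.02. RASGRF2 (ENSMMUG00000039944), an exchange factor for Ras and Rac proteins and a marker of superficial pyramidal cells, had 8962, 9577 and 8911 normalized counts in saline libraries 1, 2 and 3 and 5646, 5657 and 5610.3 in morphine libraries 1, 2 and 3. The morphine libraries were nearly equal and all lay well below the saline ones. The mean ± SD was 9150.4 ± 371 in saline and 5638 ± 24.4 in morphine libraries (n = 3 each), a fall of RASGRF2 by 0.70 ± 0.0524 (SE) in log2 units with a limma adjusted p of 0.00266.

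CUX1 (ENSMMUG00000021461), a homeodomain factor of upper layer neurons that is also expressed outside the nervous system, read 2465, 2461 and 2528 in the saline and 3064, 3285 and 3060.3 in the morphine libraries. The groups did not overlap, and CUX1 rose by 0.34 ± 0.0537 (limma adjusted p = 0.0119). MDGA1 (ENSMMUG00000003725), a cell surface protein that binds neuroligins and is a marker of superficial layers in development, read 493, 470.1 and 452 in saline and 659, 590.1 and 653 in morphine libraries. Every morphine library lay above every saline one, a rise of 0.42 ± 0.0697 (limma adjusted p = 0.0128).

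CUX2 (ENSMMUG00000001909), the relative of CUX1 that marks layers 2 to 4 most closely and is also found in some inhibitory neurons, was not called. Its saline libraries held 2888, 2726 and 3006 and its morphine libraries 2669.6, 2609 and 2940.2 normalized counts, so that the groups overlapped (log2 fold change -0.07 ± 0.0726, limma adjusted p = 0.51). HPCAL1, a neuronal calcium sensor of the hippocalcin family, had a log2 fold change of 0.04 and the POU domain factor POU3F2 one of -0.13, and neither passed the test. The difference between CUX1 and CUX2 was not tested.

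The layer 4 marker RORB fell. RORB (ENSMMUG00000012571), a nuclear receptor that marks and helps to form layer 4, had 504, 468 and 569 normalized counts in saline and 365, 379 and 418 in morphine libraries. All morphine values lay below the saline ones, and the log2 fold change was -0.41 ± 0.0982 (limma adjusted p = 0.0351). The call depended on single libraries: in the 6 fits that leave out 1 library RORB passed only when saline replicate 2 was left out (adjusted p = 0.0466). It missed the threshold with morphine replicate 1, 2 or 3 left out (adjusted p = 0.0998, 0.101 and 0.0553), with saline replicate 1 or 3 left out (adjusted p = 0.0829 and 0.0734) and with no filter on low genes (adjusted p = 0.073).

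Among layer 5 markers most log2 fold changes were positive. Of 8 tested, PCP4 and CRYM rose, ETV1 fell and 5 were not called, where 27.9% of all genes tested were called. Of the 8 log2 fold changes 6 were above 0, with a median of 0.44. Of all genes tested 8404 of 16595 were above 0. PCP4 (ENSMMUG00000041181), a small regulator of calmodulin and a marker of deep layer projection neurons, read 1449.5, 1496 and 1406 in saline and 2484, 2517 and 2834 in morphine libraries. The lowest morphine value lay far above the highest saline one, and the mean ± SD was 1451 ± 45.4 in saline and 2612 ± 194 in morphine libraries (n = 3 each). PCP4 rose by 0.85 ± 0.072 (limma adjusted p = 0.00322).

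CRYM (ENSMMUG00000016764), a thyroid hormone-binding protein of neurons that project out of the cortex, read 1110.1, 1259 and 1179 in saline and 1627, 1706 and 1702 in morphine libraries. Its groups did not overlap either, a rise of 0.51 ± 0.0659 (limma adjusted p = 0.00726). ETV1 (ENSMMUG00000039167), an ETS factor of layer 5 that is also expressed in some inhibitory neurons, fell. ETV1 had 3074, 3721 and 2937 normalized counts in saline and 2392, 2430.3 and 2411 in morphine libraries, where saline library 2 was the highest and the morphine libraries were close together. The fall of 0.42 ± 0.101 (limma adjusted p = 0.0346) missed the threshold with morphine replicate 1, 2 or 3 or saline replicate 1 left out (adjusted p = 0.0947, 0.0928, 0.0922 and 0.0684) and with no filter on low genes (adjusted p = 0.0716).

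FEZF2, BCL11B and POU3F1, regulators of the layer 5 cells that project out of the forebrain, had higher means in the morphine libraries without passing the test. FEZF2 (ENSMMUG00000021592), the factor that directs this fate, read 789, 557 and 633 in saline and 791, 742 and 842 in morphine libraries, with overlapping groups (log2 fold change 0.28 ± 0.142, limma adjusted p = 0.208). BCL11B (ENSMMUG00000003261), a zinc finger factor that acts downstream of FEZF2, read 83.9, 100.2 and 105 in saline and 115, 119 and 149.9 in morphine libraries, which did not overlap (log2 fold change 0.40 ± 0.142, limma adjusted p = 0.0953). POU3F1, a POU domain factor of corticospinal neurons, had a log2 fold change of 0.53 ± 0.188 and TSHZ2, a zinc finger factor of layer 5, one of 0.48 ± 0.183. The repressor gene BCL6 was at -0.24 ± 0.081, with every morphine library below every saline one. Limma did not call this fall (adjusted p = 0.0838), whereas edgeR (adjusted p = 0.029) and DESeq2 (adjusted p = 0.00285) did. DESeq2 also called TSHZ2 as a rise (adjusted p = 0.0252). Of the 8 layer 5 markers edgeR called 2 as rises and 2 as falls. PCP4, BCL11B and the layer 6 marker FOXP2 also mark neurons of the striatum, a region below the cortex. DRD2, a dopamine receptor of striatal neurons, rose, with 144, 207 and 181 normalized counts in saline and 307, 389 and 412 in morphine libraries (log2 fold change 1.06 ± 0.18, limma adjusted p = 0.0139, and 0.0518 without morphine replicate 2). DRD1, the other main striatal receptor, had 881, 865 and 799 in saline and 826, 657 and 744 in morphine libraries, at a log2 fold change of -0.20 that did not pass. The part of these receptor-bearing cells in the layer 5 values was not tested.

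Layer 6 and subplate markers held the steepest rise among the genes assigned to a single layer, that of NXPH4. Among the same genes the largest fall, FOXP2 at -0.73 ± 0.1, was close to that of the upper layer marker RASGRF2, at -0.70 ± 0.0524. Of 7 tested, NXPH4 and NXPH3 rose, FOXP2 fell and 4 were not called, where 27.9% of all genes tested were called. Of the 7 log2 fold changes 5 were above 0, with a median of 0.22, beside 8404 of 16595 for all genes tested. NXPH4 (ENSMMUG00000021784), a neurexophilin, which is a secreted ligand of neurexins, and a marker of layer 6b, had 119, 122 and 136 normalized counts in saline and 335, 257 and 246 in morphine libraries. Morphine library 1 was the highest, and even the lowest morphine library lay well above all saline libraries. With a mean ± SD of 126 ± 8.9 in saline and 279 ± 48.4 in morphine libraries (n = 3 each), NXPH4 rose by 1.13 ± 0.138 (limma adjusted p = 0.0061).

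NXPH3 (ENSMMUG00000003383), another neurexophilin that is enriched in layer 6b, read 323, 308 and 331 in saline and 419, 467 and 401 in morphine libraries. The groups did not overlap and the rise was 0.42 ± 0.0764 (limma adjusted p = 0.0171), but it missed the threshold with morphine replicate 1, saline replicate 1 or saline replicate 2 left out (adjusted p = 0.0509, 0.0509 and 0.0547). Whether these paralogs share reads was not examined. FOXP2 (ENSMMUG00000008005), a forkhead factor of neurons that project from layer 6 to the thalamus, fell by 0.73 ± 0.1 (limma adjusted p = 0.00815), with 1036, 1287 and 1241 normalized counts in saline and 730.1, 678 and 735 in morphine libraries. All 3 morphine values lay below the saline values.

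TBR1 (ENSMMUG00000011911), the T-box factor that specifies layer 6, read 643, 607 and 605 in saline and 728, 757 and 675 in morphine libraries. All morphine values were above the saline ones, without passing the test (log2 fold change 0.22 ± 0.0654, limma adjusted p = 0.062). TLE4 (ENSMMUG00000023365), a corepressor of the same neurons, had 1177, 1227 and 1133 in saline and 1305, 1266 and 1482 in morphine libraries (log2 fold change 0.19 ± 0.08, limma adjusted p = 0.133). SULF1, which trims sulfate groups from heparan sulfate, was at 0.39 ± 0.112 (limma adjusted p = 0.056), and ZFPM2, a cofactor of GATA proteins, was at -0.26 ± 0.18. SULF1, TBR1 and NEUROD1 (log2 fold change -0.49, limma adjusted p = 0.067) were the 3 uncalled members nearest to the threshold. THEMIS, a marker of a deep layer class with intracortical axons, was too low for testing, with 21, 6 and 0 reads in the saline libraries and none in the morphine libraries, where a count of 0 allows up to 3 reads. LAMP3 and SLA2 were also below the level, with 0 to 12 reads per library.

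**Figure D2:**
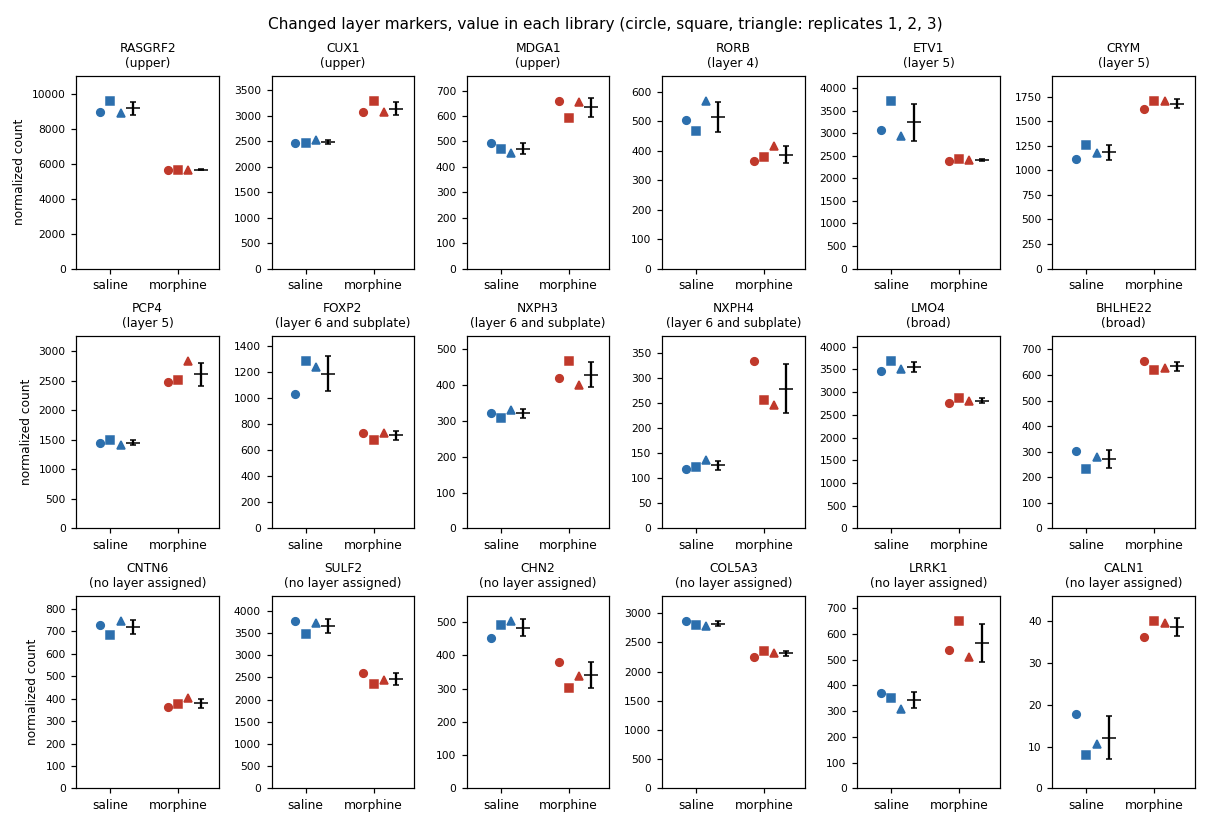
Normalized counts (vertical axes, from 0) of the 18 layer markers that changed, in each saline (blue) and morphine (red) library, with circles, squares and triangles for replicates 1, 2 and 3 and the mean ± SD in black. In every panel the 3 morphine values lie on one side of the 3 saline values.

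Among genes that mark excitatory neurons of several layers most log2 fold changes were negative. Of 8 such genes BHLHE22 rose and LMO4 fell, and 6 of the 8 log2 fold changes were below 0, with a median of -0.35. Over all genes tested 27.9% were called and 8191 of 16595 log2 fold changes were below 0. BHLHE22 (ENSMMUG00000038208), a basic helix-loop-helix factor that shapes the identity of cortical areas, read 301, 232 and 279 in saline and 655, 620.1 and 626 in morphine libraries. The morphine libraries held more than any saline library by a wide margin, a rise of 1.23 ± 0.109 (limma adjusted p = 0.0034). LMO4 (ENSMMUG00000017383), a LIM domain cofactor, fell by 0.34 ± 0.0517 (limma adjusted p = 0.0106), from 3464, 3689 and 3509.7 in the saline to 2766, 2874 and 2801 in the morphine libraries.

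The NEUROD factors, which drive and maintain the excitatory fate, were not called by limma: NEUROD1, NEUROD2 and NEUROD6 had log2 fold changes of -0.49, 0.09 and -0.14. The groups of NEUROD1 did not overlap, and edgeR (adjusted p = 0.0294) and DESeq2 (adjusted p = 0.00543) called its fall. NEUROD2 and NEUROD6 were called by neither. LMO3 was at -0.37 and FOXP1, a forkhead factor of several layers, at -0.36. MEF2C, an activity-regulated factor of neurons that is also abundant in microglia, varied more between libraries of one group than between the groups. It read 7726, 22372 and 21179.6 in saline and 7805, 8427 and 16795 in morphine libraries. Values were low in saline library 1 and in morphine libraries 1 and 2 and high in the other 3 libraries.

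The remaining 15 tested members, which were not assigned to a single layer, held 2 rises and 4 falls, with a median log2 fold change of -0.15. Among all genes tested 12.9% were called as rises and 15.0% as falls. CNTN6 (ENSMMUG00000008549), a contactin that binds cells to each other at synapses, fell by 0.92 ± 0.0663, with 727, 682 and 746 normalized counts in saline and 362, 374 and 401 in morphine libraries (limma adjusted p = 0.00246). Its relative CNTN5 was not called, at a log2 fold change of 0.01 ± 0.296. SULF2 (ENSMMUG00000012029), a relative of SULF1, read 3770.3, 3476 and 3728 in saline and 2607, 2351 and 2443 in morphine libraries and fell by 0.57 ± 0.0659 (limma adjusted p = 0.00555), whereas SULF1 had a positive log2 fold change that missed the threshold. The difference between these 2 genes was not tested.

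CHN2 (ENSMMUG00000008329), a GTPase-activating protein for Rac, read 453, 492 and 503 in saline and 380.5, 301 and 338 in morphine libraries. Its fall of 0.51 ± 0.103 (limma adjusted p = 0.0219) missed the threshold with morphine replicate 2 or 3 or saline replicate 2 or 3 left out (adjusted p = 0.0514, 0.0662, 0.0683 and 0.0657). The collagen gene COL5A3 (ENSMMUG00000039980) fell by 0.29 ± 0.0474 (limma adjusted p = 0.0131), with 2868, 2801 and 2787 in saline and 2258, 2350.4 and 2327 in morphine libraries, in the same libraries in which 2 of 4 fibroblast markers, COL1A1 and COL1A2, rose by 3.54 and 2.34. The groups of COL5A3 did not overlap.

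LRRK1 (ENSMMUG00000013325), a kinase with leucine-rich repeats, rose by 0.71 ± 0.123 (limma adjusted p = 0.0143), with 372, 351 and 309 in saline and 537, 651 and 512 in morphine libraries. CALN1 (ENSMMUG00000001225), a neuronal protein related to calmodulin, was low in all libraries, at 17.8, 8.02 and 10.5 in saline and 36.1, 39.9 and 39.4 in morphine libraries. Every morphine library was nonetheless higher than every saline one, a rise of 1.66 ± 0.277 (limma adjusted p = 0.0133), the largest log2 fold change among the 45 members and one that rests on few reads. The other 9 genes without a layer, PLCH1, EYA4, ADGRF5, TRIB2, TOX, CNTN5, GLRA2, GLRA3 and SYT10, were not called, and over all 27 uncalled members the log2 fold changes ran from -0.58 to 0.87.

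The groups of markers were also compared by their median deviation in each library. For every gene the mean of its log2 values over the 6 libraries was subtracted, and the median over the genes of a layer was taken. The upper layer median was 0.02, -0.04 and 0.04 in saline libraries 1, 2 and 3 and 0.03, -0.06 and 0.02 in morphine libraries 1, 2 and 3, which overlap. The layer 5 median was -0.23, -0.15 and -0.12 in saline and 0.10, 0.19 and 0.25 in morphine libraries. For layer 6 and subplate it was -0.10, -0.04 and -0.15 in saline and 0.15, 0.16 and 0.11 in morphine libraries. For genes of several layers it was 0.08, 0.25 and 0.04 in saline and -0.07, -0.11 and -0.09 in morphine libraries, and for genes without a layer 0.13, 0.06 and 0.03 in saline and -0.09, -0.08 and -0.05 in morphine libraries. The layer 5 and layer 6 medians were thus higher in each morphine library than in each saline library, those of genes of several layers and of genes without a layer were lower, and the upper layer medians overlapped. Of single genes tested, 48.7% did not overlap between the groups, and the medians over all genes tested were 0.01 in every library. These medians are a description of 6 to 15 genes each and carry no test, and each layer holds called genes of both directions, except layer 4 with 1 gene.

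**Figure D3:**
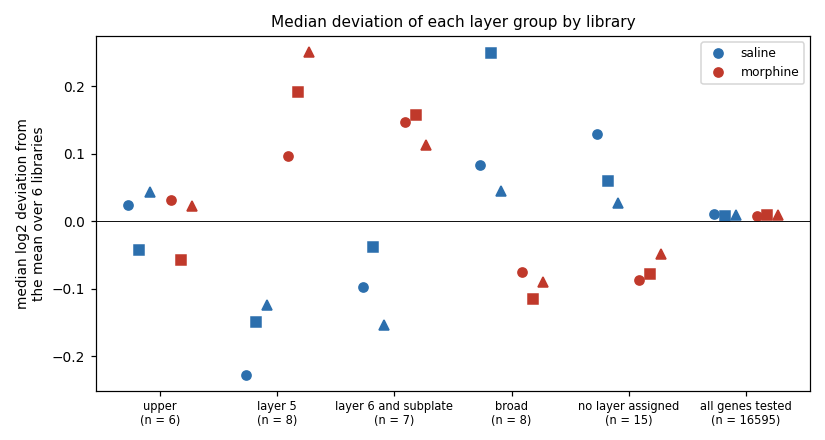
Median over the genes of each group (horizontal axis, number of genes in brackets) of the log2 deviation from the gene's mean over the 6 libraries (vertical axis), in each saline (blue) and morphine (red) library, with circles, squares and triangles for replicates 1, 2 and 3. Layer 5 and layer 6 and subplate medians are higher in the morphine libraries, those of broad markers and of genes without a layer are lower, and those of upper layer markers and of all genes tested overlap or coincide.

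A list of other layer genes shared no gene with the members. Of its 19 tested genes 3 rose and 1 fell in limma, where 27.9% of all genes were called, and 4 rose and 5 fell in edgeR, where 34.0% were. The groups did not overlap for 12 of the 19, beside 48.7% of all genes. Its 4 layer 5 genes, LDB2, VAT1L, LRATD2 and HTR2C, had a median log2 fold change of -0.06 with 2 above and 2 below 0, beside 0.44 for the layer 5 members. Limma called 0 of these 4 genes. At an unadjusted limma p under 0.05, 2 were lower and 0 higher, beside 3548 and 3390 of all 16595 genes. For these 4 genes edgeR called 1 fall and 0 rises. The difference between these 4 genes and the layer 5 members was not tested. Its 8 layer 6 and subplate genes had a median of 0.11, with 6 above 0, beside 8404 of 16595 for all genes tested. CPLX3 (ENSMMUG00000043994), a complexin of layer 6b neurons and of some inhibitory neurons, read 679, 729.7 and 614 in saline and 948, 836 and 819.6 in morphine libraries and rose by 0.36 ± 0.0955 (limma adjusted p = 0.0435), but its adjusted p lay between 0.0579 and 0.104 when any single library was left out. CCN2, another marker of layer 6b, was at -0.52 ± 0.144 (limma adjusted p = 0.0511). NR4A2, a nuclear receptor of the same cells, was at 0.46 ± 0.388, and neither gene passed in limma. The groups of CCN2 did not overlap, and edgeR (adjusted p = 0.0297) and DESeq2 (adjusted p = 0.013) called its fall. Of the 8 layer 6 and subplate genes of this list edgeR called 1 as a rise and 1 as a fall.

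Upper layer genes of this list lay on both sides of 0, as the members did. CARTPT (ENSMMUG00000015177), which encodes a neuropeptide found in upper layer neurons of primates, rose by 1.97 ± 0.0987, from 106, 102 and 117 in the saline to 472, 423 and 386 normalized counts in the morphine libraries (limma adjusted p = 0.00151). LAMP5 (ENSMMUG00000003276), a membrane protein of upper layer neurons and of a class of inhibitory neurons, rose by 0.42 ± 0.087 (limma adjusted p = 0.0226) and CALB1 (ENSMMUG00000006664), a calcium buffer of both kinds of cell, fell by 0.62 ± 0.0736 (limma adjusted p = 0.00575). The LAMP5 call was lost with morphine replicate 1 or 3 or saline replicate 2 or 3 left out (adjusted p = 0.0703, 0.0706, 0.07 and 0.0649). The median of the 6 upper layer genes was 0.00, with 3 above and 3 below 0.

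**Figure D4:**
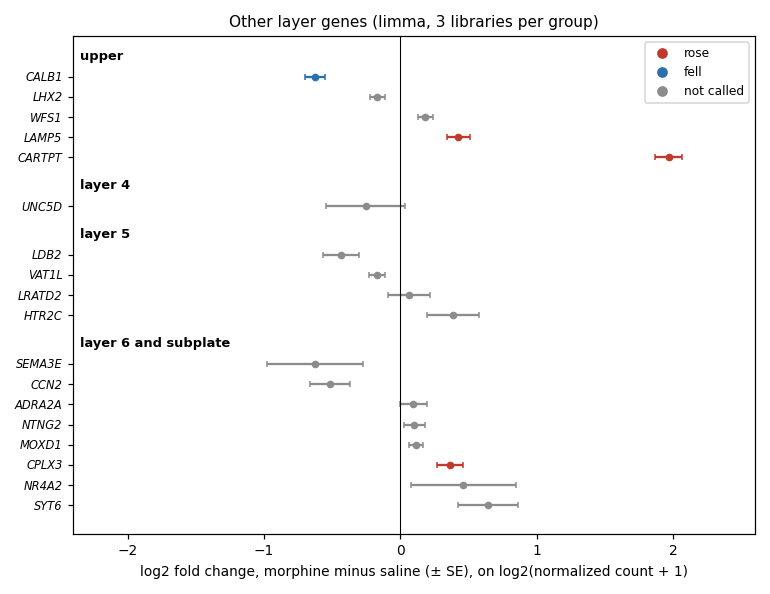
Log2 fold change of 18 of the 19 further layer genes (horizontal axis, morphine minus saline on log2(normalized count + 1), bars are standard errors), in red where they rose, blue where they fell and grey otherwise (limma, 3 libraries per group). CARTPT stands to the right of the others at 1.97, and the 4 layer 5 genes lie on both sides of 0.

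Expressed relative to the excitatory neuron markers, the balance of rises and falls among the members changed. When each library was scaled so that the mean log2 level of the 6 excitatory markers was equal, a choice made after seeing the data, the median log2 fold change of all genes moved by 0.15, and 17 members rose and 5 fell. On this scale 32.8% of all genes were called, 4070 as rises and 1381 as falls. RASGRF2, FOXP2, CNTN6, SULF2 and CHN2 still fell, RORB, ETV1, LMO4 and COL5A3 did not pass, and TBR1, TLE4, BCL11B and SULF1 were among the genes that now passed as rises. CUX2 took the opposite sign, at 0.09, and did not pass. The medians became 0.14 for upper layer markers, 0.59 for layer 5 and 0.37 for layer 6 and subplate. They lay -0.02, 0.43 and 0.21 from the median of all genes on that scale. These distances are the same without the scaling, by construction, since it moves the log2 fold change of every gene by about the same amount.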

How the data were processed

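RNA of 6 libraries was compared, 3 from the morphine and 3 from the saline group, with groups and replicate numbers from the sample titles. The deposited values are normalized counts (unit: signal): for each library the authors divided the reads of every gene by 1 size factor, as the values show. The deposited table also holds, per the file headers, log2 fold changes with standard errors, a test statistic (a score) and p-values, raw and adjusted. Bowtie2 2.1.0, DESeq2 1.18.1, StringTie and the build hg19 (human) are listed without roles per the submitters' processing notes. The annotation, and whether counting used strand, are not given in the sources used here, so genes overlapping an antisense gene are uncertain and no coordinates are given. A second deposited table, a subset of 2332 genes, was not used. Once divided by what 1 read is worth, 100% of the values of every library were whole to within 0.001. Such reads, 31238653 to 36345095 per library, allowed count tests. DESeq2 called 6105 genes and edgeR 5636 on them. Symbols came from a table of gene names that matched 15436 of 23191 identifiers (66.6%), so genes without a symbol could not be members.

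The 16595 genes with a mean of at least 10 were tested with limma 3.58.1 (R 4.3.3) on values transformed as log2(value + 1), with a term for group and no trend. P-values are two-sided with Benjamini-Hochberg adjustment over these genes, and calls were made at an adjusted p under 0.05. On simulated data of 16595 genes for this comparison, 100 changed by 1.5 fold and 100 by 2 fold, limma recovered 4% and 48% with 13 false calls, and edgeR 18% and 78% with 4. Every simulated gene had the same biological coefficient of variation, 0.16. These shares do not hold for genes that vary less, such as RASGRF2 (5638 ± 24.4 in morphine libraries), or where many genes change. In the data limma called 27.9% of genes. Pairs of libraries within a group differed by more than sampling noise (mean chi-square over genes 17.5 to 23.8, where noise gives a mean of 1). The median over genes was much lower, 2.6 to 3.19.

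Members, their assignment to layers and all lists were chosen with earlier results of these data known. A member was given a layer where 1 layer was taken as its main one, and such genes need not be confined to it. Named are all called members, the defining markers CUX2, RORB, FEZF2, BCL11B, TBR1, FOXP2, TLE4, HS3ST4, NXPH4, THEMIS and LINC00507, the 3 uncalled members nearest the threshold and called genes of the list of other layer genes. Not all called cell type markers are named. Further genes named were picked with their values in view. Results of 1 gene of the other lists are not reported here. Layer groups are described by counts and medians, with no test. Alternatives were TMM and upper-quartile scaling, other filters and pseudocounts, a block for the replicate number, leaving out single libraries, an intensity trend, edgeR 4.0.16, DESeq2 1.42.0 and the authors' deposited comparison. Scaling to excitatory markers was added after seeing the data. Figures were drawn with matplotlib 3.10.9.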

Additional observations from a re-analysis of the deposited data

How the results depend on the processing

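All 18 changed members kept their direction under each of the 18 alternatives in which they were tested (CALN1 was not tested with a minimum mean of 50). Most of these alternatives could not have turned a direction. The groups of all 18 did not overlap, so leaving out 1 library or changing the pseudocount, filter, block or trend keeps the sign. All 18 were also called by edgeR, by DESeq2 and in the authors' deposited comparison. Of the 18, 14 were called in each of the 6 fits without 1 library, the exceptions being RORB, ETV1, NXPH3 and CHN2. Without 1 library 1064 to 1502 genes rose and 1465 to 1680 fell (1132, 1064 and 1168 rose and 1564, 1465 and 1647 fell without morphine replicate 1, 2 or 3; 1440, 1355 and 1502 rose and 1627, 1515 and 1680 fell without saline replicate 1, 2 or 3), against 2143 and 2488. Then 8 or 9 members rose and 6 to 9 fell, 1 or 2 layer 6 and subplate markers rose, and 0 or 1 layer 5 markers fell. The median log2 fold change without 1 library ran from 0.36 to 0.48 for layer 5, from 0.20 to 0.26 for layer 6 and subplate and from -0.04 to 0.01 for upper layer markers, whose sign was not stable.

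With no filter 1363 genes rose and 1630 fell, and 0 layer 5 markers fell, with more genes to adjust over. With a minimum mean of 50, 4 layer 6 and subplate markers rose. With an intensity trend, in edgeR, in DESeq2 and in the authors' deposited comparison 2 layer 5 markers fell, ETV1 and BCL6. In DESeq2 14 members fell. Scaled to the excitatory markers, 4070 genes rose and 1381 fell, 17 members rose and 5 fell, 4 layer 5 markers rose and 0 fell, 5 layer 6 and subplate markers rose, the medians were 0.14, 0.59 and 0.37 for upper layer, layer 5 and layer 6 and subplate markers, and uncalled genes took the opposite sign: CUX2 (0.085), PLCH1 (0.13), POU3F2 (0.028), NEUROD6 (0.011) and TOX (0.00412). Further uncalled genes near 0 changed sign: PLCH1 with upper-quartile scaling (0.000993), and CNTN5 in edgeR (-0.039), DESeq2 (-0.039) and the authors' deposited comparison (-0.041). Without 1 library the log2 fold changes of uncalled genes that changed sign ran from -0.000151 to 0.0556 for HPCAL1, from -0.0549 to 0.00192 for PLCH1, from -0.288 to 1.66 for SYT10, from -0.281 to 0.252 for CNTN5, from -0.522 to 0.014 for UNC5D and from -0.0464 to 0.19 for LRATD2. The cause was not tested.

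The replicate numbers did not pair the libraries: deviations of same-numbered libraries from their group means correlated across genes at -0.0563, -0.0039 and -0.0284. With the replicate block 681 genes rose and 896 fell (9.5%), 5 members rose and 3 fell, 0 upper layer markers rose, 0 layer 5 and 0 layer 6 and subplate markers fell and 1 layer 6 and subplate marker rose, with fewer residual degrees of freedom. Depth limits CALN1, with 8.02 to 39.9 normalized counts per library, and the 3 members below the level for testing.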

Other observations

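Some members differed widely between libraries of one group. SYT10, a synaptotagmin, had 28.6, 1.00 and 15.8 normalized counts in saline libraries 1, 2 and 3 and 27.6, 9.08 and 20.2 in morphine libraries 1, 2 and 3. ADGRF5, an adhesion receptor best known from endothelium and lung, had 2016, 1926 and 933 normalized counts in saline libraries 1, 2 and 3 and 1205, 1304 and 1204 in morphine libraries. NR4A2, of the list of other layer genes, had 225, 620.4 and 439 in saline and 582, 467 and 590.0 in morphine libraries. Values of MEF2C, given above, were low in 3 libraries of both groups and high in the other 3.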
